A study of Mus musculus with 6 samples.

Results

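The alpha-2,6-sialyltransferases are the Golgi enzymes that attach sialic acid through its carbon 2 to carbon 6 of an acceptor sugar. Of the 8 mouse genes of the St6gal and St6galnac families, 7 were matched to a probe set and make up the members described here. They are among 909 named genes on the array. St6gal2, the other St6gal gene, was matched to no probe set through the name table and was not analysed here. The table lacked the accessions of 21 probe sets, so the count of 7 reflects the table's names and not the array's content. A probe set of St6gal2 may be among those 21. Members were chosen by gene symbol, through the RefSeq accession in each probe set's identifier, and every measured member had 1 probe set. The study hybridised liver RNA from 3 wildtype male mice, labelled healthy, and 3 male mice with insulin-deficient diabetes, 1 sample per array, to an Affymetrix array on which glycan genes predominate. The sources used here do not give strain, age, how diabetes was induced or how long it lasted. The labels do not spell out that each array came from its own animal. The p-values therefore set each difference against the spread between these samples, which may not be the spread between animals.

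Sialyltransferases take sialic acid from CMP-sialic acid, which a transporter carries into the Golgi. St6gal1 caps the galactose ends of N-glycans, and hepatocytes are known for high amounts of it because they secrete many sialylated plasma glycoproteins. The St6galnac enzymes instead act on N-acetylgalactosamine: St6galnac1 and St6galnac2 on mucin-type O-glycans, St6galnac3 and St6galnac4 on O-glycans or glycolipids that already carry a sialic acid, and St6galnac5 and St6galnac6 mainly on gangliosides.

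The St6galnac genes lie in pairs in the genome. In RefSeq's mouse annotation (GRCm38.p6), St6galnac1 and St6galnac2 are next to each other on chromosome 11, St6galnac3 and St6galnac5 on chromosome 3 and St6galnac4 and St6galnac6 on chromosome 2, with 0 other protein-coding genes between the genes of a pair. St6gal1 is on chromosome 16. Promoter windows were held for 5 of the 8 genes, with 3 alternative windows for St6gal1. The 250 bases before the start are shown for 3 members, the brightest on the array and a pair of dim ones, with the outermost window for St6gal1. They are RefSeq sequences of GRCm38.p6, written 5′ to 3′, with each CG dinucleotide in capitals.
St6gal1, chr16:23224490-23224739, plus strand: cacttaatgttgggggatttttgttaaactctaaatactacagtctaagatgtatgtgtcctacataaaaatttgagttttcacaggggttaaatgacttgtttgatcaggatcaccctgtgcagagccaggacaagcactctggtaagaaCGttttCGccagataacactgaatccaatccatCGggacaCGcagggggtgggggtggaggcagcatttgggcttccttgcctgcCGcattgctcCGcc
St6galnac3, chr3:153725134-153725383, minus strand: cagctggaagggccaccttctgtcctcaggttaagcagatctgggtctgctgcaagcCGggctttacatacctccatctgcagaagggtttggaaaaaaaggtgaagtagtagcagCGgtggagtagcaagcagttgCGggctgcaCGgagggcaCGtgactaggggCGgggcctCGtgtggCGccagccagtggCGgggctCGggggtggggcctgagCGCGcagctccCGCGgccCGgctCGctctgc
St6galnac4, chr2:32586828-32587077, plus strand: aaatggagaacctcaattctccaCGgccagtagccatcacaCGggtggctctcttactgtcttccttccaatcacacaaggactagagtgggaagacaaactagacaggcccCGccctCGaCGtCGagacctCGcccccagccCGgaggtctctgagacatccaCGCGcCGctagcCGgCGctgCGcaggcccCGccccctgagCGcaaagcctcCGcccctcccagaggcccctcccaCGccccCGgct

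These windows differed in base composition. The St6gal1 window held 6 CG dinucleotides and 47.2% G or C, and its other windows held 10 and 5. The St6galnac3 window held 16 and the St6galnac4 window 19, at 64.8% and 65.2% G or C, while that of the bright St6galnac6 held 2. The median over all 32851 windows in the table was 6. The GC box GGGCGG, searched on both strands, occurred 1 time before St6galnac3 and 3 times before St6galnac4 and in no window of St6gal1 or St6galnac6; 32.7% of all windows held it. The letters TATAAA, also searched on both strands, were found in none of the 7 windows of the family, against 12.4% of all windows. No window was held for the dim St6galnac1, St6galnac2 and St6galnac5. Among the measured members with a window, the dim St6galnac3 and St6galnac4 thus held more CG dinucleotides than the bright St6gal1 and St6galnac6. This is a description of 4 genes and says nothing of which start these livers used. The annotation has only 12 bases between St6galnac4 and St6galnac6, both on the plus strand. A window before the first St6galnac6 start would therefore lie mostly in the end of the dim St6galnac4. The low CG count of the St6galnac6 window may describe that end, and without it the contrast rests on St6gal1 alone among the bright members.

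The arrays gave log2 signals made by the authors with RMA, between 2.03 and 13.45, with array medians from 4.93 to 5.06. On wildtype 2, 40 probe sets differed from each of the remaining arrays by more than 0.5 in the same direction, against 1 to 21 on the other arrays. Igfbp1, which insulin represses, was at 6.26, 6.50 and 10.09 on wildtype 1, 2 and 3 and at 10.65, 8.90 and 11.52 on diabetic 1, 2 and 3, so the library labelled wildtype 3 lay in the diabetic range for this gene. Member values without one of these arrays are given where the sign turned or the size moved by more than 1.5 times. All 6 measured hepatocyte markers lay above the median probe set.

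The members' signals formed a bright pair and a dim remainder. Averaged over the 6 arrays, St6gal1 had 9.67 (percentile 94.6 among all 1246 probe sets) and St6galnac6 had 7.97 (percentile 84.4). The others lay under the median of all probe sets: St6galnac4 at 4.64, St6galnac2 at 4.07, St6galnac3 at 3.75, St6galnac1 at 3.32 and St6galnac5 at 3.10, the last at percentile 11.3. The order was the same on 6 of 6 arrays. The smallest steps on any array were 0.055 between St6galnac2 and St6galnac3 and 0.061 between St6galnac1 and St6galnac5. The mean steps were 0.32 ± 0.22 and 0.22 ± 0.12 (SD, n = 6), while that between St6gal1 and St6galnac6 was 1.70 ± 0.17. A probe set's signal also depends on its probes, so this is an order of signals and not of transcript amounts, and without detection calls the dim members cannot be told from background.

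**Figure D1:**
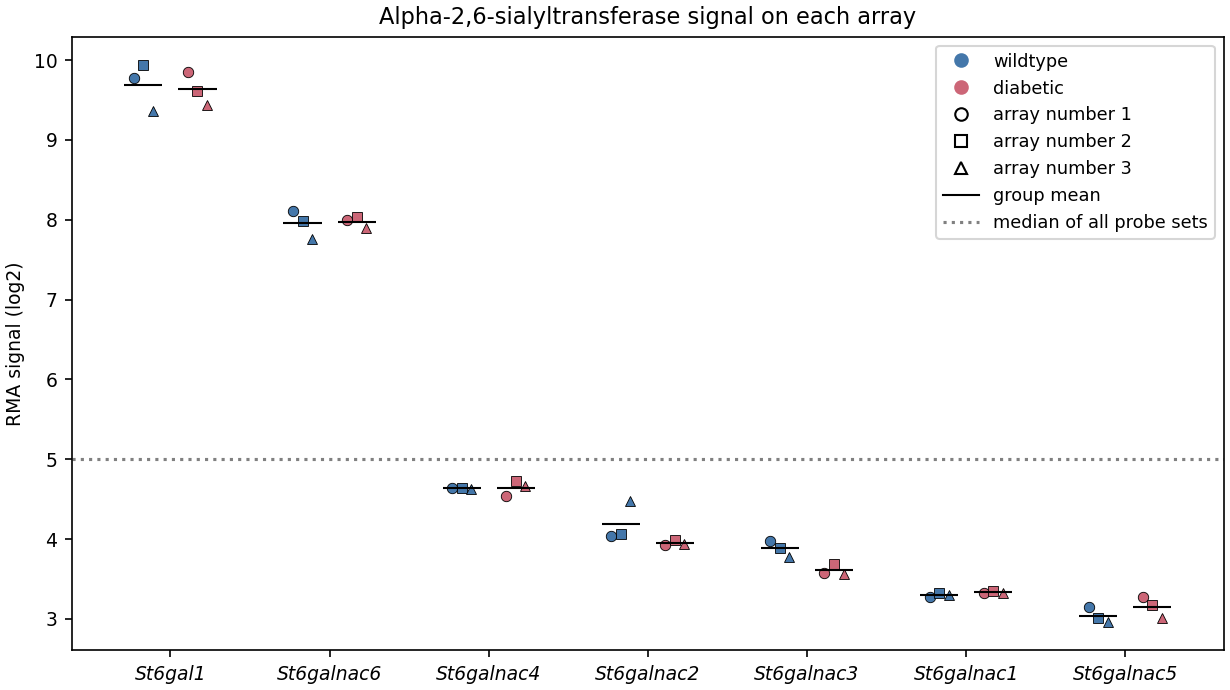
RMA signal on the log2 scale (vertical axis) of the 7 measured alpha-2,6-sialyltransferases (horizontal axis) on each of 3 wildtype and 3 diabetic arrays; symbols give the array number, bars the group means and the dotted line the median of all probe sets. St6gal1 and St6galnac6 lie above that median on every array and the other 5 below it, and the groups separate only for St6galnac2 and St6galnac3.

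Between diabetic and wildtype liver, 0 of the 7 members passed the threshold, a limma adjusted p under 0.05 over all probe sets, where 0.321% of all probe sets passed. At an unadjusted p under 0.05 it was 1 of 7 members, against 2.97% of all probe sets. The means were higher in diabetic liver for 4 members and lower for 3, with a median difference of 0.01 on the log2 scale, against 630 higher and 616 lower and a median of 0.00 over all probe sets. In this limma fit, all 7 of the 95% confidence intervals lay within a change of 1 on the log2 scale, or 2-fold, in either direction. Of the 7, 6 lay within 0.5. The interval of St6gal1 went beyond 0.5 after quantile normalization (-0.71 to 0.37) and in an ordinary linear model (-0.64 to 0.53). For the dim members, which cannot be told from background, the intervals bound the signal and not the transcript amount. Whole liver RNA was measured, so fewer cells of a type and less RNA per cell cannot be told apart.

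**Figure D2:**
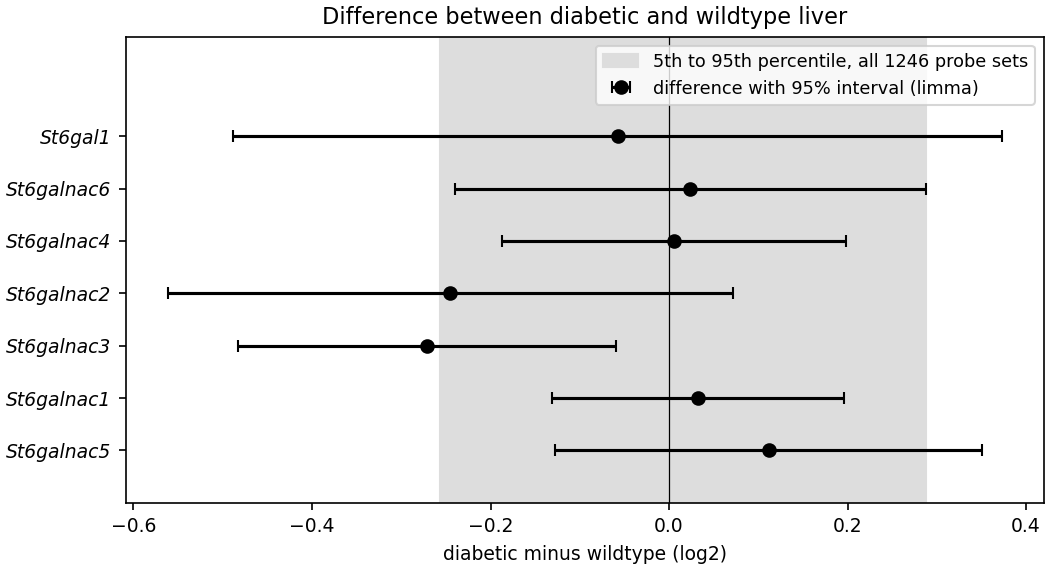
Diabetic minus wildtype difference on the log2 scale (horizontal axis) for each measured member, with limma's 95% confidence interval; the grey band runs from the 5th to the 95th percentile of the differences of all 1246 probe sets. The interval of St6galnac3 lies below 0, from -0.48 to -0.06 before adjustment, and those of the other 6 members include 0.

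St6gal1, the main hepatocyte enzyme of the family, was at 9.78, 9.94 and 9.36 on wildtype 1, 2 and 3 and at 9.85, 9.61 and 9.44 on diabetic 1, 2 and 3. The groups overlapped over most of their range, with wildtype 2 the highest and wildtype 3 the lowest of all arrays. The difference was -0.06 (SE 0.18, 95% confidence interval -0.49 to 0.37; limma adjusted p = 0.99). At the bounds of that interval, a signal drop of 28.7% or a 1.30-fold rise remained within the error. The sign rested on single arrays: the difference was 0.07 without wildtype 2, 0.04 without diabetic 3, -0.015 without wildtype 1, -0.17 without diabetic 1 and -0.22 without wildtype 3. Quantile normalization also moved the difference, to -0.17, with a wider 95% confidence interval of -0.71 to 0.37. An ordinary linear model, without limma's moderation, gave an interval of -0.64 to 0.53.

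St6galnac6, a ganglioside enzyme, was at 8.11, 7.99 and 7.76 on wildtype 1, 2 and 3 and at 8.004, 8.031 and 7.899 on diabetic 1, 2 and 3. All diabetic arrays fell inside the wildtype range. The difference was 0.02 (SE 0.11, 95% confidence interval -0.24 to 0.29; limma adjusted p = 0.99), and it changed sign to -0.07 without wildtype 3 and to -0.03 after quantile normalization, and was 0.04 without wildtype 2. Its neighbour St6galnac4, which adds a second sialic acid to sialylated core 1 O-glycans, was at 4.64, 4.64 and 4.63 on the wildtype arrays and at 4.54, 4.73 and 4.67 on diabetic 1, 2 and 3. The diabetic arrays lay on both sides of the wildtype values, and limma put the difference at 0.01 (95% confidence interval -0.19 to 0.20; adjusted p = 0.99). Without diabetic 2 it was -0.036, and without wildtype 3 it was 0.0023. This probe set has the suffix that Affymetrix gives to probes matching several transcripts.

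St6galnac3, which sialylates the N-acetylgalactosamine of already sialylated glycolipids and O-glycans, was at 3.98, 3.89 and 3.77 on wildtype 1, 2 and 3 and at 3.58, 3.69 and 3.56 on diabetic 1, 2 and 3. The diabetic arrays all lay below the wildtype arrays, with 0.082 between the nearest of them. The difference was -0.27 (SE 0.09, 95% confidence interval -0.48 to -0.06), which is a 1.21-fold lower mean signal, and it did not pass (limma adjusted p = 0.928). It was the member with an unadjusted p under 0.05 and ranked 14th of 1246 probe sets by p. An exact two-sided permutation test of 3 arrays against 3 cannot go below p = 0.1, the value that separate groups give. Between arrays with the same number the differences were -0.40, -0.20 and -0.22, and leaving out any 1 array gave between -0.33 and -0.22. These signs add nothing to the separation of the groups. When groups do not overlap, every pairing gives a lower diabetic value and leaving out 1 array cannot turn the sign. The St6galnac3 signal was at percentile 21.3 of all probe sets. Among the 251 other probe sets within 0.5 of its level, 3.19% had a difference at least as large in size.

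St6galnac2, an O-glycan enzyme, was at 4.04, 4.07 and 4.48 on wildtype 1, 2 and 3 and at 3.92, 3.98 and 3.94 on diabetic 1, 2 and 3. The groups did not overlap, but the gap was 0.052 and wildtype 3 stood far above the other arrays. The difference was -0.25 (SE 0.13, 95% confidence interval -0.56 to 0.07; limma adjusted p = 0.928), and without wildtype 3 it was -0.10. On wildtype 3 the mean over 4 stellate cell markers was also highest, at 5.04 against 4.52 to 4.73 on the other arrays. Of these markers Dcn, at 8.35, and Pdgfrb, at 6.03, peaked on that array, whereas Lum peaked on wildtype 1 and Hgf on diabetic 2. Lum and Hgf were dim, with mean signals of 3.33 and 2.54. The macrophage marker Cd74 also peaked on wildtype 3, at 7.94. The mean over the macrophage markers was highest on diabetic 3, at 6.36, as was that over the lymphocyte markers, at 5.10. That over the endothelial markers was highest on wildtype 2, at 4.89. The part of any of these markers in the St6galnac2 value was not tested. St6galnac2 and St6galnac3 were the 2 of 7 members whose groups did not overlap, both lower in diabetic liver, against 7.87% of all probe sets in either direction and 3.29% in that direction.

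St6galnac1, the enzyme that makes the sialyl-Tn antigen, was at 3.28, 3.33 and 3.30 on wildtype 1, 2 and 3 and at 3.33, 3.35 and 3.33 on diabetic 1, 2 and 3. All values lay within 0.072 of each other, and diabetic 3 and wildtype 2 had the identical deposited value. Its difference was 0.03 (95% confidence interval -0.13 to 0.20, limma adjusted p = 0.99). Between arrays with the same number the differences were 0.052, 0.023 and 0.023. The share of all probe sets with the same sign in all pairs was not counted, so these signs are not read as a result. St6galnac5, known from brain gangliosides, was the dimmest member, at 3.15, 3.02 and 2.96 on wildtype 1, 2 and 3 and at 3.27, 3.18 and 3.02 on diabetic 1, 2 and 3. The groups overlapped, and the mean was 0.11 higher in diabetic liver (95% confidence interval -0.13 to 0.35; limma adjusted p = 0.942). The difference ran from 0.055 without diabetic 1, over 0.069 without wildtype 3, to 0.18 without diabetic 3.

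**Figure D3:**
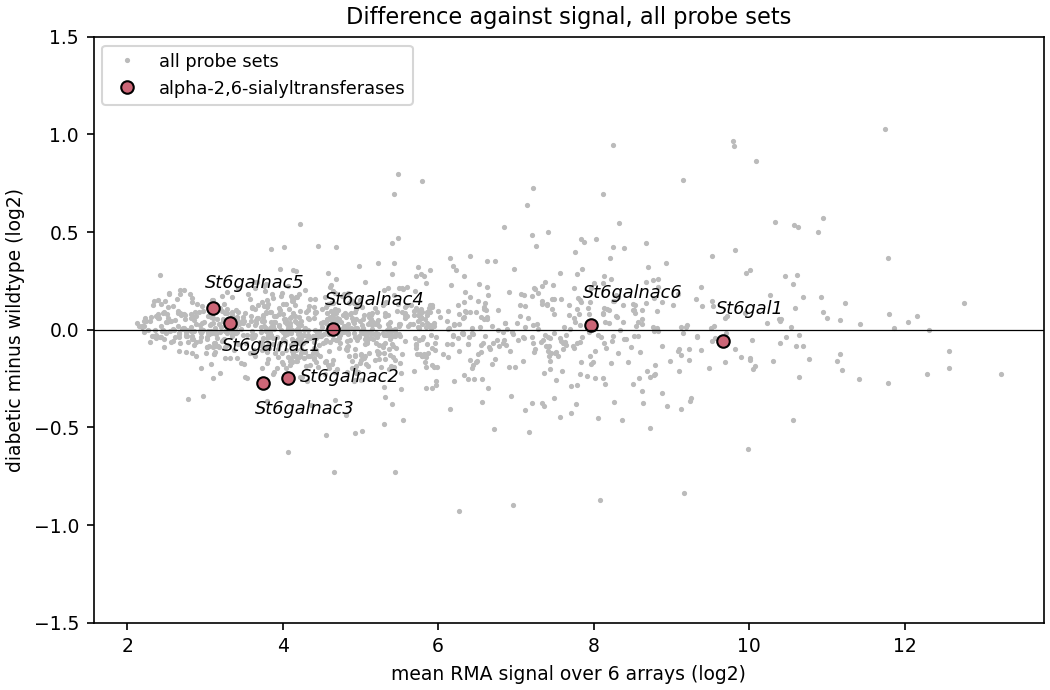
Diabetic minus wildtype difference (vertical axis, log2) against the mean signal over 6 arrays (horizontal axis, log2) for all 1246 probe sets, with the 7 measured members marked; 1 probe set, that of Igfbp1 at 2.74, lies outside the vertical axis. St6galnac2 and St6galnac3 lie at the lower edge of the cloud at their level, and the other members lie inside it.

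Markers of other liver cells were read beside the lower values of St6galnac3 and St6galnac2. The mean over 3 endothelial markers ran from 4.66 to 4.88 on diabetic and from 4.85 to 4.89 on wildtype arrays, and that over 4 stellate cell markers from 4.56 to 4.73 and from 4.52 to 5.04. For 6 macrophage markers it ran from 5.59 to 6.36 and from 5.74 to 6.17, and for 2 lymphocyte markers from 4.90 to 5.10 and from 4.90 to 5.01. The list means overlapped between the groups for all 4 lists, and 0 of their genes passed the threshold. Single markers differed in both directions. Cd74 differed by -0.41 (-0.11 without wildtype 3), Pdgfrb by -0.38 (-0.16 without wildtype 3) and Selp by -0.30 (-0.20 without wildtype 2). The macrophage marker Adgre1 differed by 0.31, and by -0.14 without diabetic 3. Each of these differences was larger in size than that of St6galnac3. Csf1r differed by 0.14, and by -0.28 without diabetic 3. Hgf differed by 0.18 with all diabetic arrays higher, but it was dim, with a mean signal of 2.54 at percentile 3.6 of all probe sets. The markers Sele and Lum were also dim, at percentiles 4.7 and 15.3. The part of these cells in the members' values was not tested.

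The supply of the donor sugar showed 0 called genes. Of 7 measured genes of CMP-sialic acid supply and turnover, 3 had higher and 4 lower means in diabetic liver, with a median difference of -0.04. Cmas, which activates sialic acid to CMP-sialic acid, was at 9.83 ± 0.02 in diabetic and 9.96 ± 0.31 in wildtype liver (log2, SD, n = 3), a difference of -0.14 (limma adjusted p = 0.96). Wildtype 3 alone was high, at 10.32, and without it the difference was 0.04. Renbp, the renin-binding protein that is an N-acetylglucosamine epimerase, differed by -0.14, and Npl, which cleaves free sialic acid, by 0.09. The Renbp difference was -0.07 without wildtype 1, and that of Npl ran from 0.02 without wildtype 1 to 0.14 without wildtype 3.

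Among enzymes that remove sialic acid, 2 of 3 sialidases had higher means and 0 passed. The lysosomal sialidase Neu1 was at 8.07, 8.09 and 8.05 on diabetic 1, 2 and 3 and at 7.88, 7.93 and 7.75 on wildtype 1, 2 and 3, so that the groups did not overlap, which with diabetic higher held for 4.57% of all probe sets. It was 0.21 higher in diabetic liver (95% confidence interval 0.02 to 0.40 before adjustment; limma adjusted p = 0.928). Neu2 differed by 0.34, with wildtype 1 at 5.67 inside the diabetic range; this was 0.55 without wildtype 1 and 0.21 without wildtype 2. The dim Neu3 differed by -0.02 and by 0.06 without wildtype 1.

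The other sialyltransferases also held 0 called genes. Of 6 St3gal genes, which attach sialic acid through the other common linkage to galactose, 3 had higher and 3 lower means and the groups of 0 were separate, with a median difference of -0.06. St3gal3 differed by -0.24, St3gal4 by -0.24 and the ganglioside enzyme St3gal5 by 0.54, with a 95% confidence interval up to 1.94 for the last. These values rested on single arrays: St3gal4 differed by 0.02 without wildtype 1, St3gal3 by -0.09 without wildtype 2 and -0.44 without wildtype 1, and St3gal5 by 0.01 without wildtype 2 and 1.16 without wildtype 3. Of 6 St8sia genes, which build sialic acid chains, 5 had higher and 1 lower means, with a median of 0.08, but only 1 of these 6 lay above the median probe set.

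Enzymes that build acceptors held 0 called genes as well. Of 11 genes of galactose addition and N-glycan branching, which together make antennae on which St6gal1 acts, 5 had higher and 6 lower means, with a median of -0.01. The list includes B4galt5 and B4galt6, known mainly as lactosylceramide synthases of the glycolipid pathway. B4galt5 differed by -0.46 and the N-glycan galactosyltransferase B4galt1 by -0.35, both beyond any member's difference in size, and the branching enzyme Mgat4b by 0.22, all with a limma adjusted p of 0.928. Leaving out wildtype 1 gave -0.18 for B4galt5 and -0.23 for B4galt1, while B4galt5 was at -0.78 when wildtype 3 was left out and B4galt1 at -0.57 when diabetic 3 was. Mgat4b was the 1 of these 11 whose groups did not overlap, against 7.87% of all probe sets, and its difference was 0.12 without diabetic 1. Of 15 genes that make acceptors for the St6galnac enzymes, 6 had higher and 9 lower means, with a median of -0.04; Galnt1 differed by 0.21, the ganglioside enzyme B3galt4 by 0.21 and Galnt12 by -0.17. The groups did not overlap for 2 of the 15, B3galt4 and Galnt12, again against 7.87% of all probe sets. The Galnt1 difference was 0.10 without diabetic 1. Of 10 receptors of sialylated or desialylated glycans, 7 had higher and 3 lower means, between -0.12 and 0.08, and 0 passed.

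Across the 6 arrays, the profile of St6gal1 was most like those of Il18rap, a subunit of the interleukin-18 receptor (Pearson r = 0.965, Spearman rho = 1), Extl2, an exostosin-like glycosyltransferase (r = 0.955, rho = 0.812), and Slc35a1, the CMP-sialic acid transporter of the Golgi (r = 0.951, rho = 0.943). Il18rap ran only from 4.41 to 4.55 and Extl2 only from 7.42 to 7.53, against 9.36 to 9.94 for St6gal1. Slc35a1 was at 8.30, 8.31 and 7.72 on wildtype 1, 2 and 3 and at 8.27, 7.99 and 7.96 on diabetic 1, 2 and 3. St6gal1 and Slc35a1 were thus high on wildtype 1, wildtype 2 and diabetic 1 and lowest on wildtype 3. Without wildtype 3 and diabetic 3, the arrays farthest from the St6gal1 median, r was 0.978, 0.825 and 0.889 for the 3 genes. These are the highest of 908 correlations over 6 arrays, where 12 genes had r above 0.9, and they are given as descriptions without a p.

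St6galnac2, the member with the next largest spread, was most like Igfbp3, an IGF-binding protein (r = 0.945, rho = 0.657), the NK receptor gene Klra8 (r = 0.939, rho = 0.657) and Cmas (r = 0.935, rho = 0.029). All 3 were highest on wildtype 3, where Igfbp3 was at 4.83 against 3.41 to 3.72 elsewhere. Without that array r was 0.102, 0.417 and -0.671, so the likeness rested on wildtype 3.

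**Figure D4:**
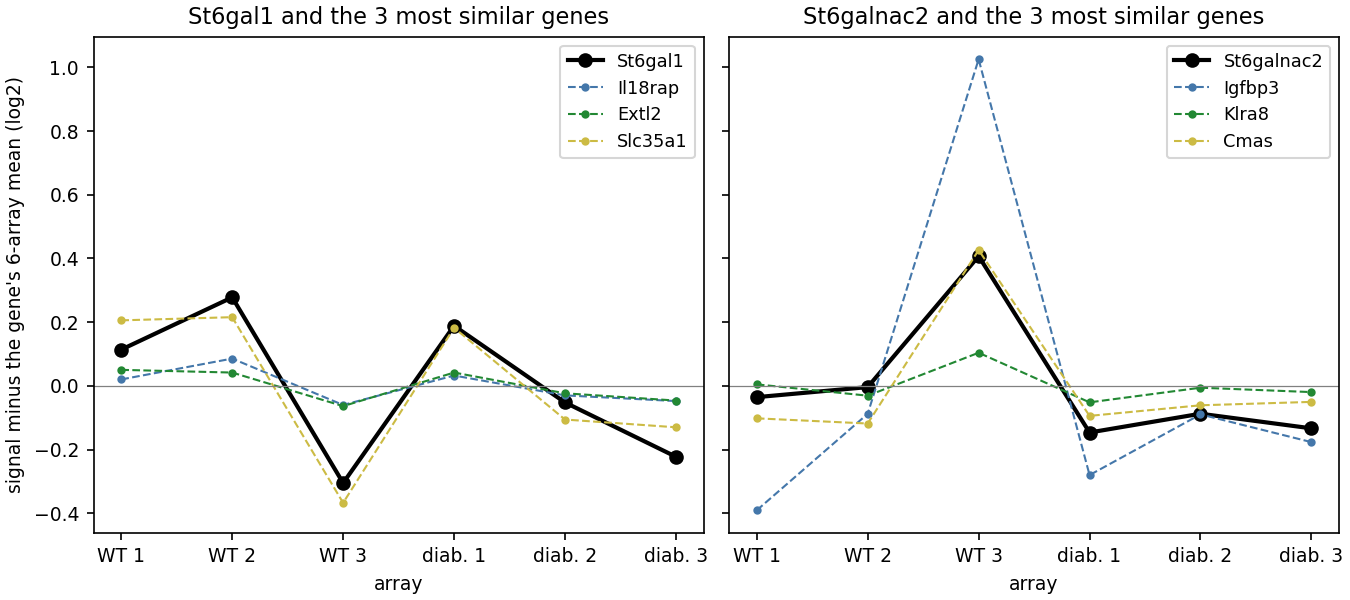
Signal minus the gene's own mean over the 6 arrays (vertical axis, log2) on each array (horizontal axis; WT is wildtype, diab. is diabetic) for St6gal1 and St6galnac2 and the 3 genes with the highest Pearson r to each; lines only join values of a gene. The 3 genes beside St6gal1 are, like it, lowest on wildtype 3, with Il18rap and Extl2 over a narrower range. The genes beside St6galnac2 share its high value on wildtype 3 and little else.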

How the data were processed

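The deposited table held 1246 probe sets on 6 arrays. The values were made by the authors with RMA, per the submitters' processing notes, a method that normalizes between arrays, so these values cannot show a change common to most probe sets. The deposited values were taken as log2. The RMA version and settings were not given in the sources used here, and no detection calls were used. Of 984 probe sets with a RefSeq accession, 963 were named through the RefSeq table of GRCm38.p6, used for names and neighbours. Where a gene had several, the probe set with the highest mean was used; no member had more than 1.

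The groups were compared with limma 3.58.1 (lmFit, eBayes; R 4.3.3) over all probe sets, with Benjamini-Hochberg adjustment. The script was tested on simulated data. Deviations from group means of arrays with the same replicate number correlated at 0.397, 0.138 and 0.162, which meets the limit set for pairs. The values printed come from the fit without a block; adding the replicate number as a block left 0 probe sets called, against 4, and changed no member's call.

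The members and gene lists were chosen with earlier results of these data known. Named genes were all members, up to 3 per list by p, and the 3 genes most like St6gal1 and like the 2 members of largest spread, which were St6gal1 and St6galnac2. The alternatives were scaling, a filter on dim probe sets, the variance model, a block on the replicate number and leave-one-out refits; those for genes of the lists were chosen after seeing the data.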

Additional observations from a re-analysis of the deposited data

How the results depend on the processing

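Of the 7 members, 0 passed the threshold under any alternative run, and St6galnac1, St6galnac2, St6galnac3 and St6galnac5 kept their direction in all 12 alternatives run for each. Not all of these could turn a direction. The fit with eBayes trend and robust, the ordinary linear model and the replicate block change only the error and not the difference. For St6galnac2 and St6galnac3, whose groups did not overlap, leaving out 1 array could not turn the sign either. With the replicate block the members' differences were unchanged, as each number occurs once per group (-0.06 for St6gal1, -0.27 for St6galnac3), and limma's adjusted p was 0.822 for St6galnac3 and St6galnac2. The signs of 3 members turned, and the cause was not tested: without 1 array at a time St6gal1 ran from -0.22 to 0.067, St6galnac6 from -0.072 to 0.10 and St6galnac4 from -0.036 to 0.059, and quantile normalization gave -0.031 for St6galnac6 and moved St6gal1 to -0.17. The filter on dim probe sets removed 5 members and left St6gal1 and St6galnac6. Over all probe sets, 4 calls became 0 with the replicate block, with eBayes trend and robust and with an ordinary linear model, and 0 to 1 without 1 array, where fewer samples enter. No member has another probe set, so that alternative could not be run. Signal over background limits the 5 dim members, where a difference in transcript amount may not show.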

Other observations

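After the values were seen, it was noticed that number 3 was the lowest array of both groups for St6gal1, St6galnac6, St6galnac3 and St6galnac5. This held for 4 of 7 measured members, or 57.1%, against 148 of 1246 probe sets, or 11.9%. That number was picked after seeing the values; counting any number that was lowest in both groups gives 71.4% of members against 38.5% of all probe sets. What the numbers refer to is not stated in the labels, and the arrays' part in this was not tested.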
